A study of Homo sapiens with 23 samples.

Results

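Contractile genes encode the actin filaments, myosin motors, filament anchors and transcriptional regulators with which smooth muscle cells and myofibroblasts generate force. The 38 genes followed here were chosen by name from that apparatus, with earlier results of these data known. Of these, 35 had an annotated probe detected on at least 3 arrays, and they were tested among 12994 genes in all. DES (desmin, an intermediate filament protein), FLNA (filamin A, an actin cross-linker) and KCNMB1 (a subunit of the calcium-activated potassium channel of smooth muscle) had no probe in the annotation used and were not analysed here.

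The cells were CCL-75, a human lung fibroblast line, and their RNA was hybridised to 23 Illumina bead arrays of 1 colour. Pre_Ab_IL13 cells (4 arrays) received TNF and IL-17 for 72 hours, with a neutralising antibody to the decoy receptor IL-13Ra2 in the last 1 hour of it, and then IL-13 for 20 hours. Pre_IL13 cells (4 arrays) received TNF and IL-17 and then IL-13. Pre_Ab_only cells (4 arrays) received TNF, IL-17 and the antibody, and Pre_only cells (3 arrays) TNF and IL-17. IL13 cells (4 arrays) received IL-13 and no pretreatment, and Control cells (4 arrays) no cytokine and no antibody. All groups used the same line, grown in medium with serum and rested overnight in 12-well plates. Each group was taken at passages 8 and 6 and in an experiment A and an experiment B per passage, and an array is named by both (P6-A); Pre_only has no array P8-A here. The submitters' design calls the passages biological replicates and A and B independent experiments, while the sample labels call A and B technical replicates. The fits below hold passage as a term. Their p-values therefore measure the spread between arrays of 1 line that is left after the mean difference between the 2 passages. That spread includes A against B within a passage.

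In smooth muscle, calcium and calmodulin activate myosin light chain kinase, the phosphorylated light chain lets myosin pull on actin, and myosin phosphatase reverses the step. Fibroblasts take up much of the same machinery when they become myofibroblasts, with smooth muscle actin (ACTA2) as the usual marker. Transcription of many of these genes runs through SRF, a factor that binds a short element called the CArG box, together with cofactors of the myocardin family that respond to actin assembly. IL-13 is a type 2 cytokine studied in airway fibrosis, and IL-13Ra2 binds it without the signalling chain of the main receptor.

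The exact form of the CArG box, in which only A and T stand between the CC and GG ends and which reads the same on either strand, was looked for in RefSeq promoter windows (GRCh38.p14, 250 bases before to 50 bases after each annotated start). Windows were available for 30 of the 38 genes, and 9 of these 30 genes (30.0%) held a box, against 1.60% of all 27305 genes with a window (438 genes). The windows of ACTA2 and CNN1 did not hold these letters, and TAGLN, MYH11, MYL9 and MYOCD had no window in the table. A match is a description of the letters and not a binding site. The 120 bases before the start are printed for the 6 tested genes with a box inside them, since there the matched letters stand close to the start. Capitals mark the box.
ACTG2, chr2:73892888-73893007, plus strand: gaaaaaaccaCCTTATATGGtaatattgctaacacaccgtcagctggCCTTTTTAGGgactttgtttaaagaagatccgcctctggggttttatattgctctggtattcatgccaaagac
CNN2, chr19:1026488-1026607, plus strand: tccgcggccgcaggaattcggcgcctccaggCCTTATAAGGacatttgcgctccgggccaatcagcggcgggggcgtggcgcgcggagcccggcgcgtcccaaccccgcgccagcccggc
SMTN, chr22:31084876-31084995, plus strand: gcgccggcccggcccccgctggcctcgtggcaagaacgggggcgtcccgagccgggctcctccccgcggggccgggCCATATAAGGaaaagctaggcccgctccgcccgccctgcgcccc
MYLK, chr3:123620549-123620668, minus strand: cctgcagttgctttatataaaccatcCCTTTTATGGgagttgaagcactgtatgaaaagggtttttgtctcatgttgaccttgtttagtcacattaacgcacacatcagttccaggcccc
TGFB1I1, chr16:31473085-31473204, plus strand: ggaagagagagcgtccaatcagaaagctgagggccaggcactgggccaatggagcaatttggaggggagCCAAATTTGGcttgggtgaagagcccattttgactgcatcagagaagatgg
SRF, chr6:43171149-43171268, plus strand: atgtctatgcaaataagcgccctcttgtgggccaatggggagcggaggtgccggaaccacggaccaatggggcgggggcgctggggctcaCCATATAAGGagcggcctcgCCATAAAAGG
ACTG2 and SRF each held 2 boxes in this stretch. Those of SRF began 30 and 10 bases before the start, and those of ACTG2 110 and 73 bases before it. All 6 of these genes fell with TNF and IL-17 in both comparisons below. So did most of the 35 tested genes (29 and 30), against 12.8% and 13.8% of all genes. The falls therefore do not set the genes with a box apart from the others. With each array scaled to its median, SMTN, MYLK and TGFB1I1 were not called in Pre_IL13 against IL13. TPM4 and ACTN1, which held a box further from the start, also fell in both. Under that scaling TPM4 was not called in Pre_IL13 against IL13 either.

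On each array 17818 to 20167 probes were detected (detection p under 0.05), and the median probe intensity lay between 93.4 and 106. A value of a contractile gene rested on at least 10 beads, with a median of 23 beads and a median bead standard error of 3.35% of the signal. Levels below are log2 intensities after background correction and quantile normalisation, of the brightest detected probe per gene, and they are compared between arrays and not between genes, since probes differ in how they bind. Of the 35 genes, 32 were detected on all 23 arrays, while MYOCD was detected on 18, TRIM55 on 16 and SYNPO2 on 5. Fibroblast markers fitted the label: 11 of 11 were detected, COL1A1, DCN and VIM among them. Epithelial EPCAM and CDH1, endothelial PECAM1 and CDH5, leukocyte PTPRC and CD3E, and skeletal muscle MYOD1, ACTA1 and CKM had no detected probe. A gene without a probe in the annotation used is counted in the same way, so this need not mean absence. Other genes of the same lists were detected: KRT7, KRT18, KRT19, VWF, TEK, CD68, CD14, CD79A, LYZ and MYOG. So were 6 of 7 pericyte and 4 of 6 cardiac genes. Passage and beadchip could not be told apart, because each passage was hybridised on its own chip. In a bulk sample, fewer cells with a transcript and less of it per cell cannot be told apart either.

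Most of the contractile genes were lower in cells given TNF and IL-17. In Pre_only against Control, 29 of the 35 fell at an adjusted p under 0.05 and 0 rose, where 24.8% of all genes were called, 12.8% lower and 12% higher (limma with the passage as a term and Benjamini-Hochberg adjustment over all genes, as for every adjusted p below). The median change of the 35 genes was -0.73 on the log2 scale, and that of all genes was -0.01. At least 2-fold falls were seen for 11 of them, against 1.81% of all genes. Pre_IL13 against IL13, which compares other arrays, gave 30 genes lower and 0 higher, with a median change of -0.66. There 27.8% of all genes were called, 13.8% lower and 14% higher. Both comparisons came from the same fit over all arrays, with a shared spread between arrays and a shared passage term. They also share the line, the passages and the beadchips, so the second is not an independent repeat of the first. Every called gene changed in the same direction in both passages in either comparison. Of the calls over all genes, 51.6% were lower in Pre_only against Control and 49.6% in Pre_IL13 against IL13. With each array scaled to its median in place of quantile normalisation these shares were 61.8% and 18.8%, and the median of all genes in Pre_IL13 against IL13 shifted to 0.15. Under that scaling 29 contractile genes fell in Pre_only against Control, where 9.27% of all genes fell and 5.72% rose. In Pre_IL13 against IL13 19 of them fell, where 4.29% of all genes fell and 18.5% rose. In either comparison 0 were higher. All 15 pretreated arrays lay below all 8 other arrays for 15 of the 35 genes, against 4.39% of all genes, and above them for 0, against 4.03%. The genes were chosen with earlier results of these data known, so these counts describe the list. They do not test it against all genes.

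**Figure D1:**
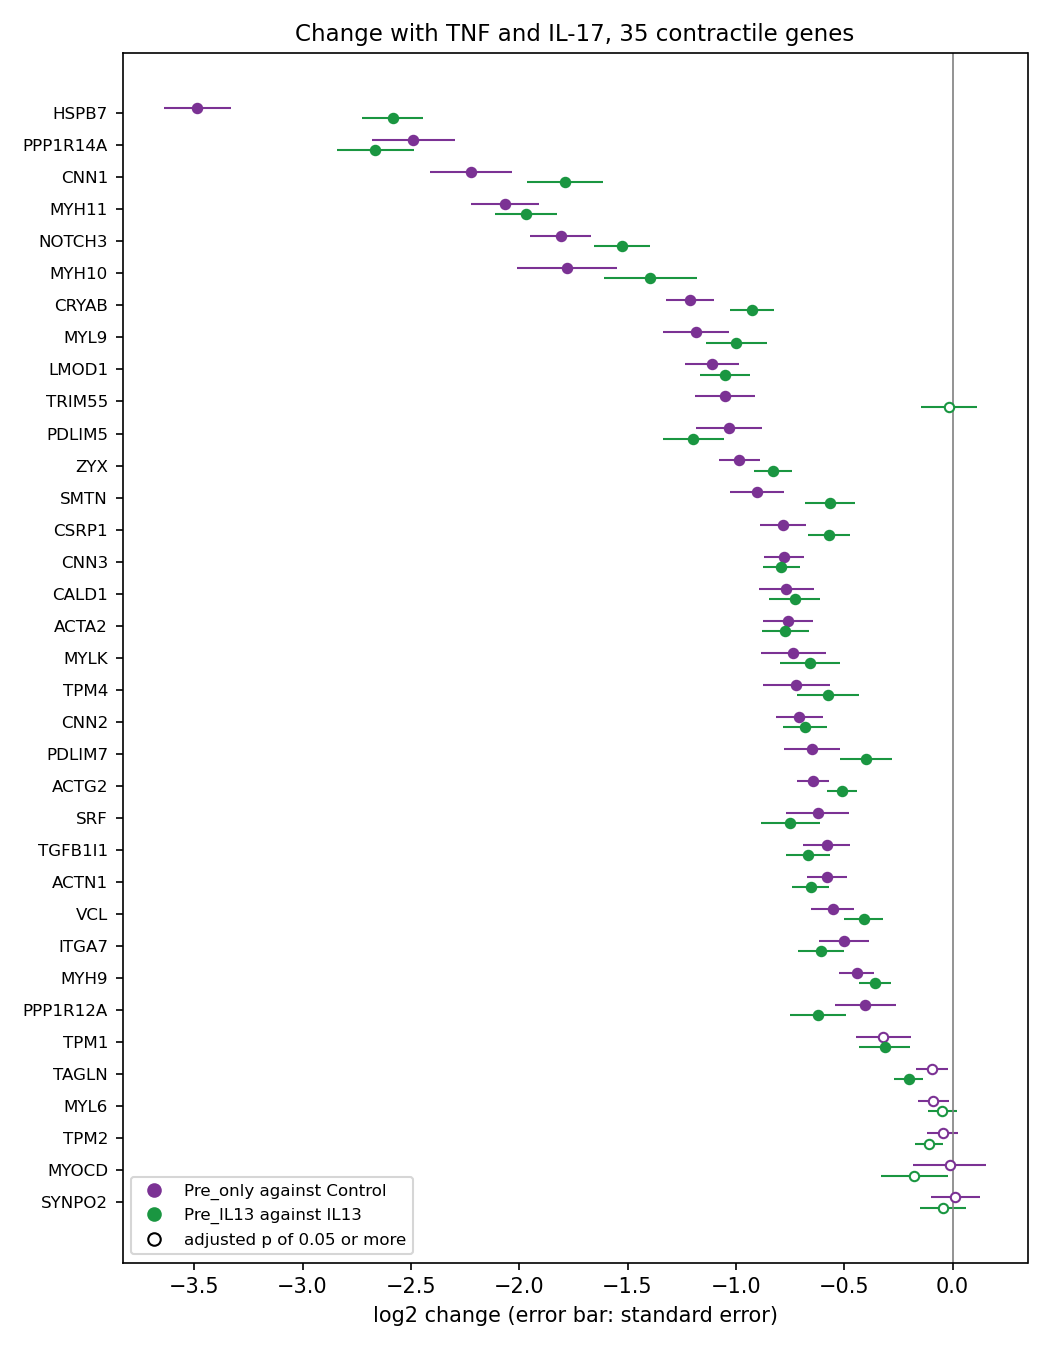
Change in level (log2 scale, standard error as bars) of the 35 tested contractile genes in Pre_only against Control and in Pre_IL13 against IL13; open points have an adjusted p of 0.05 or more. Nearly all points lie left of 0, from -3.49 for HSPB7 to values near 0 for MYL6, TPM2, MYOCD and SYNPO2, and TRIM55 alone is called in the first comparison and near 0 in the second.

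Markers of other cell types moved between the same groups. The 3 detected of 7 epithelial genes summed to 152 to 248 in Pre_only and 657 to 861 in Control on the linear intensity scale, with KRT19 lower by -2.34 ± 0.14 log2 (SE). The 4 detected of 7 leukocyte genes summed to 2773 to 3012 in Pre_only and 1303 to 1514 in Control, with CD14 (1.19 ± 0.12) and CD68 (1.10 ± 0.16) higher. PTPRC, CD3E and ITGAM had no detected probe, or none in the annotation used. The 6 detected of 7 pericyte genes summed to 1345 to 1459 in Pre_only and 1638 to 1850 in Control, while the 11 fibroblast genes summed to 55370 to 64679 in Pre_only and 48154 to 55764 in Control. The 2 detected of 6 endothelial genes summed to 169 to 262 in Pre_only and 155 to 204 in Control, the 4 detected of 6 cardiac genes to 84.0 to 93.5 in Pre_only and 86.0 to 104 in Control, and MYOG, the 1 detected of 8 skeletal muscle genes, to 21.2 to 30.4 in Pre_only and 22.8 to 26.0 in Control. In Pre_IL13 against IL13, 5 of the 6 pericyte genes fell, where 13.8% of all genes fell and 14% rose. The 6 pericyte genes summed to 1503 to 1725 in Pre_IL13 and 2198 to 2434 in IL13. The epithelial genes summed to 180 to 221 in Pre_IL13 and 435 to 669 in IL13, with 2 lower and 1 higher. The leukocyte genes summed to 2401 to 2721 in Pre_IL13 and 774 to 1404 in IL13, and the fibroblast genes to 51632 to 61833 in Pre_IL13 and 48701 to 58989 in IL13. The endothelial genes summed to 146 to 266 in Pre_IL13 and 109 to 159 in IL13, the cardiac genes to 103 to 122 in Pre_IL13 and 92.9 to 208 in IL13, and MYOG to 20.7 to 21.1 in Pre_IL13 and 19.4 to 28.6 in IL13. The part of these shifts in the contractile results was not tested.

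The thin filament genes encode actins, the tropomyosins that lie along the filament, and the proteins that cap, bind or regulate it. Of the 12 tested, 9 fell in Pre_only against Control and 11 in Pre_IL13 against IL13. ACTA2 had levels of 13.36, 13.18 and 13.07 in the 3 Pre_only arrays, against 13.87, 13.90, 13.91 and 13.92 in the 4 Control arrays. The groups did not overlap, and ACTA2 fell by 0.76 ± 0.12 log2 (SE), or 1.69-fold, with an adjusted p of 6.96e-06. With IL-13 present, ACTA2 stood at 13.46, 13.55, 12.70 and 12.76 in Pre_IL13 arrays and at 14.13, 13.94, 13.70 and 13.79 in IL13 arrays, again without overlap, a change of -0.77 ± 0.11. ACTG2, the smooth muscle gamma actin whose window carries 2 CArG boxes, changed by -0.64 ± 0.07 in Pre_only against Control and by -0.51 ± 0.07 in Pre_IL13 against IL13.

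CNN1 encodes calponin 1, an actin-binding inhibitor of myosin that marks differentiated smooth muscle. It had levels of 7.06, 7.01 and 7.16 in Pre_only arrays, against 9.85, 9.61, 8.59 and 8.71 in Control arrays. The pretreated arrays lay close together, and the Control arrays were split by passage without reaching them. CNN1 fell by 2.22 ± 0.19 log2, or 4.66-fold (adjusted p = 8.57e-11). In the presence of IL-13 it stood at 7.51, 7.85, 6.76 and 6.80 in Pre_IL13 arrays and at 9.82, 9.36, 8.53 and 8.36 in IL13 arrays, a change of -1.79 ± 0.17. The related calponins changed less: CNN3 by -0.78 ± 0.09 and CNN2 by -0.71 ± 0.11 in Pre_only against Control.

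LMOD1 (leiomodin, which starts new actin filaments in smooth muscle) fell by 1.11 ± 0.12 log2 in Pre_only against Control. SMTN (smoothelin) fell by 0.90 ± 0.12, CALD1 (caldesmon, an actin-bound brake on myosin) by 0.77 ± 0.13 and TPM4 by 0.72 ± 0.15. TPM1 (-0.32 ± 0.13, adjusted p = 0.0642), TAGLN (-0.10 ± 0.07, adjusted p = 0.392) and TPM2 (-0.05 ± 0.07, adjusted p = 0.713) were not called in that comparison. In Pre_IL13 against IL13, TPM1 (-0.31 ± 0.12, adjusted p = 0.0427) and TAGLN (-0.20 ± 0.07, adjusted p = 0.0226) passed the threshold. The 4 probes of TPM1 differed in direction there, from -0.39 to 0.10. TPM1 lost that call when any of 5 arrays was left out (adjusted p up to 0.227, without IL13 P6-A) and TAGLN without IL13 P6-A (0.097) or Pre_IL13 P6-B (0.0875).

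TAGLN encodes transgelin (SM22), an actin-binding protein that is among the most used markers of the smooth muscle program. Its brightest probe had levels of 13.89, 13.86 and 13.89 in Pre_only arrays, against 13.83, 14.01, 14.03 and 14.06 in Control arrays, and the groups overlapped. A second probe annotated to the same transcript had levels of 12.08, 11.96 and 12.03 in Pre_only arrays, against 13.38, 13.41, 13.09 and 13.03 in Control arrays. By this probe the groups stood far apart, and it fell by 1.25 ± 0.09 (adjusted p = 4.31e-12) in Pre_only against Control and by 1.01 ± 0.09 in Pre_IL13 against IL13. A dim probe for another transcript changed by -0.60 ± 0.19 in Pre_only against Control (adjusted p = 0.0191).

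TPM2 (beta tropomyosin) also had probes that disagreed in size. Its brightest probe changed by -0.05 ± 0.07 in Pre_only against Control, while a second probe of the same transcript fell by 0.49 ± 0.08 (adjusted p = 3.68e-05) and a probe of another transcript by 1.06 ± 0.14 (adjusted p = 3.74e-07). The TAGLN and TPM2 probes that were not called were among the brightest on the arrays. Before normalisation the brightest TAGLN probe averaged 80.3% of the highest intensity on its array and the brightest TPM2 probe 75.7%. The second TAGLN probe averaged 33.7% and the second TPM2 probe 59.6%. MYL6 (an essential myosin light chain), at 70.8%, was not called either (-0.09 ± 0.07), whereas ACTA2, at 62.4%, and ACTG2, at 60.9%, were called. Uncalled probes of TPM1 (24.9% and 0.666%), MYOCD (0.562%) and SYNPO2 (0.529%) were dimmer. The part of signal height in these differences was not tested. Tested probe by probe, 53 of the 61 detected probes of the 35 genes fell in Pre_only against Control and 0 rose, where 11.7% of all 17541 probes fell. For the 18 genes with more than 1 detected probe, all probes of a gene changed in the same direction in this comparison.

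**Figure D2:**
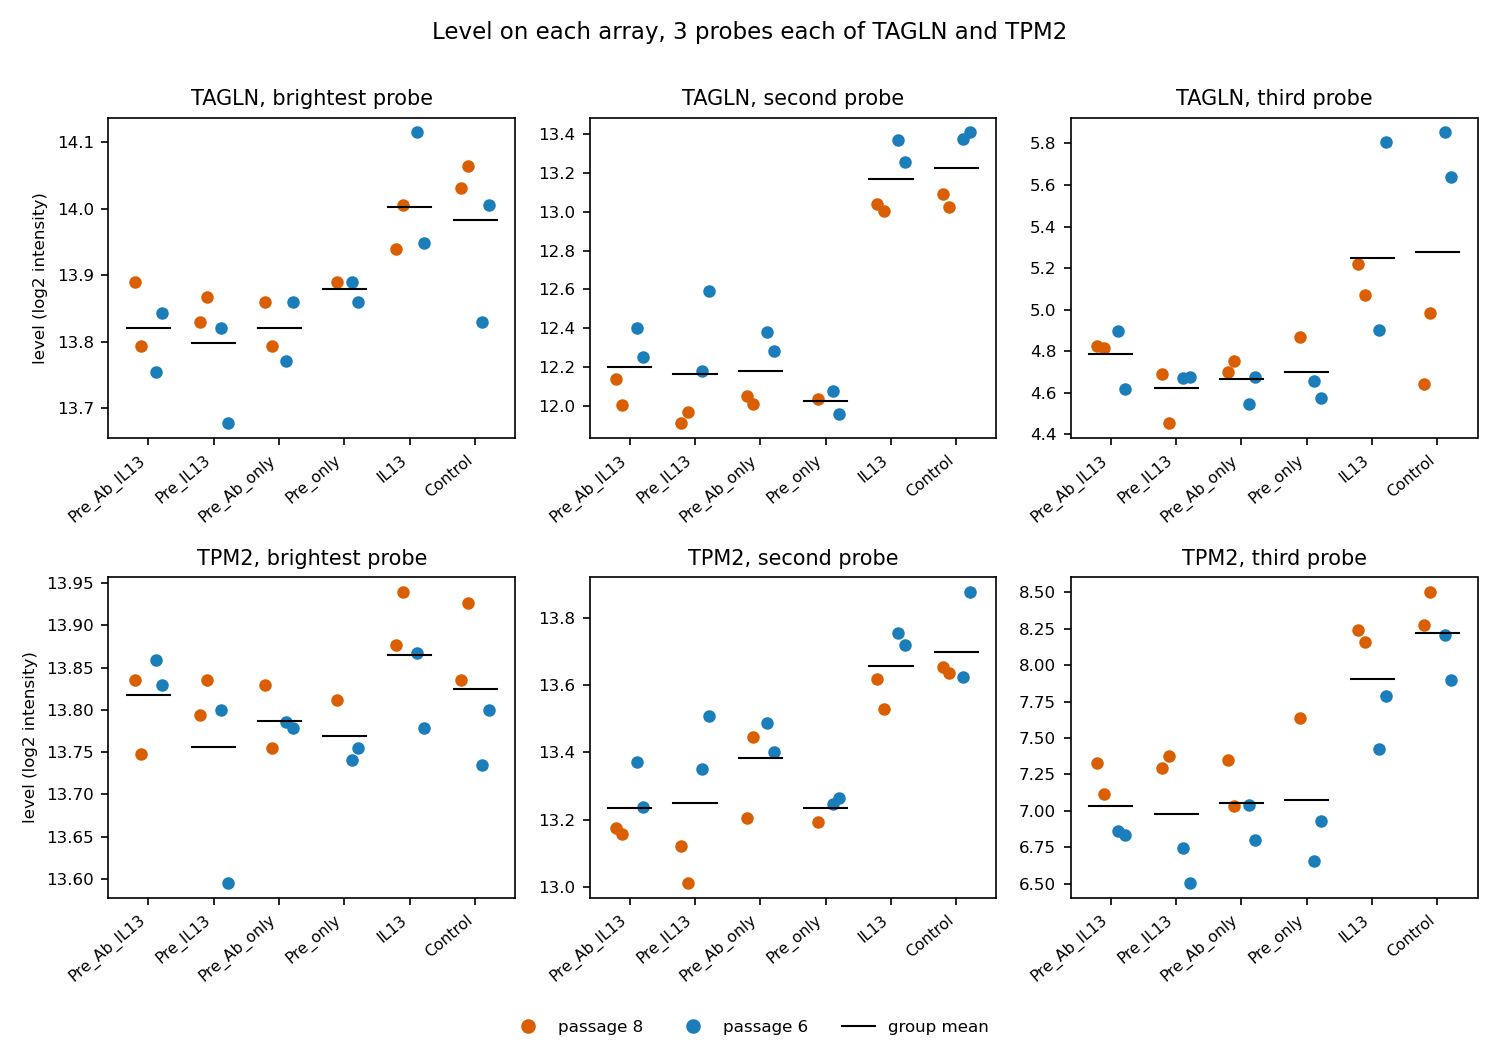
Level (log2 intensity) on each of the 23 arrays for 3 probes of TAGLN and 3 of TPM2, by group, with passage 8 and passage 6 in different colours and the group mean as a line. For the brightest TAGLN probe Pre_only lies between 13.86 and 13.89 and Control between 13.83 and 14.06, while for the second TAGLN probe Pre_only lies between 11.96 and 12.08 and Control between 13.03 and 13.41.

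Myosin heavy and light chains, the light chain kinase and the phosphatase make up the motor and its switch. Of these 8 genes, 7 fell in both comparisons, with a median change of -0.96 in Pre_only against Control and -0.83 in Pre_IL13 against IL13. MYH11, the smooth muscle myosin heavy chain, had levels of 9.19, 9.41 and 8.59 in Pre_only arrays, against 11.69, 11.84, 10.11 and 10.03 in Control arrays. Every Pre_only array was below every Control array, and in both groups passage 8 was the lower passage. MYH11 fell by 2.07 ± 0.16 log2, or 4.18-fold (adjusted p = 7.29e-12). In Pre_IL13 arrays it stood at 9.65, 9.57, 8.48 and 8.55 and in IL13 arrays at 11.79, 11.92, 10.13 and 10.28, a change of -1.97 ± 0.14.

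MYH10, a nonmuscle myosin heavy chain, had levels of 9.25, 9.52 and 9.43 in Pre_only arrays, against 11.74, 12.02, 10.28 and 10.20 in Control arrays. The Control arrays of passage 6 stood well above those of passage 8, and the Pre_only arrays did not separate by passage. It fell by 1.78 ± 0.23 log2 (3.43-fold, adjusted p = 4.27e-07) in Pre_only against Control and changed by -1.40 ± 0.21 in Pre_IL13 against IL13. MYH9, the other nonmuscle heavy chain on the list, fell by 0.44 ± 0.08 and 0.36 ± 0.07 in these comparisons.

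MYL9, the regulatory light chain that the kinase phosphorylates, had levels of 9.30, 9.45 and 9.84 in Pre_only arrays, against 11.06, 10.83, 10.38 and 10.43 in Control arrays. The groups did not overlap, and MYL9 fell by 1.19 ± 0.15 log2, or 2.27-fold (adjusted p = 3.25e-07). MYL9 stood at 9.68, 10.18, 9.54 and 9.50 in Pre_IL13 arrays and at 11.03, 10.91, 10.57 and 10.38 in IL13 arrays, without overlap. It stood at 9.99, 9.59, 9.46 and 9.85 in Pre_Ab_IL13 arrays and at 9.93, 9.83, 9.77 and 9.66 in Pre_Ab_only arrays. MYLK, the kinase, fell by 0.73 ± 0.15 in Pre_only against Control and by 0.66 ± 0.14 in Pre_IL13 against IL13. PPP1R12A, the targeting subunit of myosin phosphatase, fell by 0.62 ± 0.13 in Pre_IL13 against IL13 and by 0.40 ± 0.14 in Pre_only against Control (adjusted p = 0.032). The call in Pre_only against Control was lost without any of 5 arrays, with an adjusted p of up to 0.145 (without Pre_only P6-A).

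PPP1R14A encodes CPI-17, the smooth muscle inhibitor of myosin phosphatase. Its levels were 6.67, 7.57 and 7.45 in Pre_only arrays, against 9.95, 9.85, 9.43 and 9.61 in Control arrays. Pre_only P6-A was the lowest of all 23 arrays, and the groups did not overlap. PPP1R14A fell by 2.49 ± 0.19 log2, or 5.61-fold (adjusted p = 1.27e-11). In Pre_IL13 arrays it stood at 7.70, 7.20, 7.78 and 7.98 and in IL13 arrays at 10.20, 10.92, 10.12 and 10.08. The change of -2.66 ± 0.18 (6.34-fold) was the largest among the 35 genes in Pre_IL13 against IL13.

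**Figure D3:**
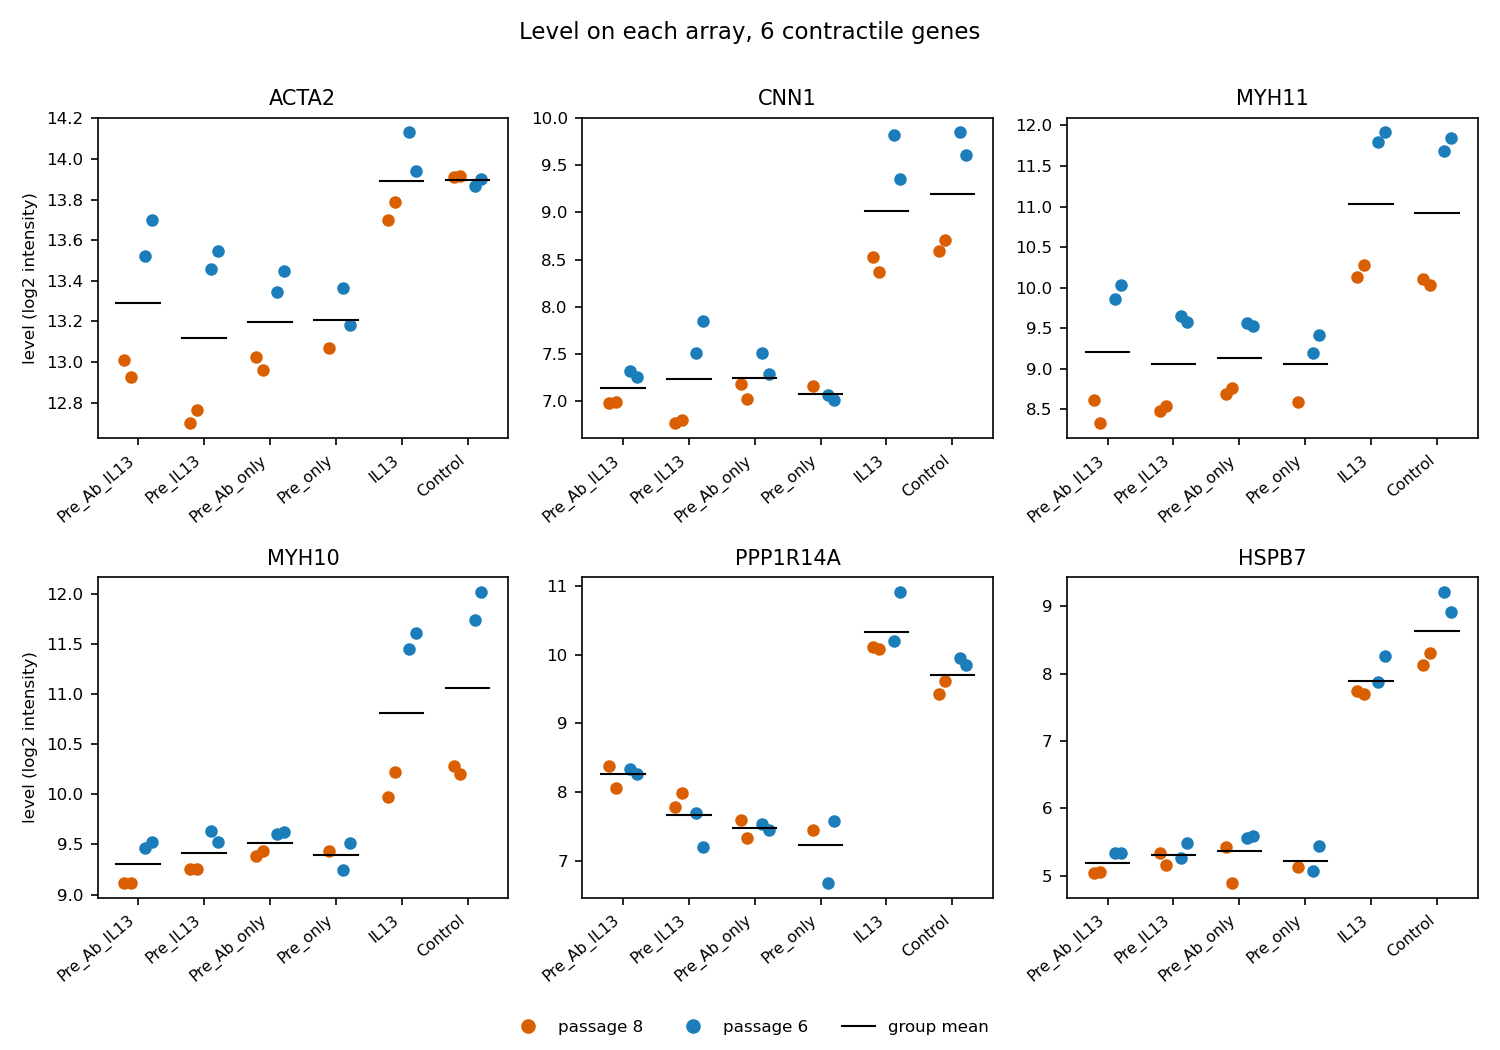
Level (log2 intensity) of ACTA2, CNN1, MYH11, MYH10, PPP1R14A and HSPB7 on each of the 23 arrays, by group, with passage 8 and passage 6 in different colours and the group mean as a line. Within either passage the arrays of the 4 pretreated groups lie below those of IL13 and Control for each gene, and passage 6 lies above passage 8 for CNN1, MYH11 and MYH10 in IL13 and Control arrays.

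Cross-linkers, adhesion proteins and sarcomere proteins tie the filaments to one another and to the membrane. Of the 10 tested, 9 fell in Pre_only against Control and 8 in Pre_IL13 against IL13. PDLIM5, a PDZ and LIM protein of the Z-line, fell by 1.03 ± 0.15 and 1.20 ± 0.14 log2 in these comparisons, and ZYX (zyxin, a tension-sensitive adhesion protein) by 0.98 ± 0.09 and 0.83 ± 0.09. CSRP1, a LIM protein bound to actin bundles, fell by 0.78 ± 0.11 and 0.57 ± 0.10. Smaller changes were called for ACTN1 (alpha-actinin, -0.58 ± 0.09 in Pre_only against Control), TGFB1I1 (HIC-5, an adhesion adaptor, -0.58 ± 0.11), VCL (vinculin, -0.55 ± 0.10) and ITGA7 (a laminin-binding integrin chain of muscle, -0.50 ± 0.12). PDLIM7 fell by 0.65 ± 0.13. SYNPO2 (an actin-bundling protein of muscle) was near background on most arrays and changed by 0.01 ± 0.11.

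TRIM55, a muscle ubiquitin ligase of the sarcomere that is studied mainly in heart and skeletal muscle, was called in 1 of these comparisons. Its levels were 4.58, 4.62 and 4.88 in Pre_only arrays, against 5.65, 6.06, 5.80 and 5.57 in Control arrays, a change of -1.05 ± 0.14 (adjusted p = 6.24e-07). In Pre_IL13 arrays they were 4.85, 4.92, 4.77 and 4.93 and in IL13 arrays 4.53, 4.76, 5.06 and 5.18, a change of -0.02 ± 0.13 (adjusted p = 0.95). These levels are low on the array's scale, and the IL13 arrays overlapped the pretreated ones.

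The small heat shock proteins HSPB7 and CRYAB (alpha-B crystallin) act as chaperones of filament proteins in muscle. HSPB7 had levels of 5.08, 5.44 and 5.13 in Pre_only arrays, against 9.21, 8.91, 8.12 and 8.31 in Control arrays. It fell by 3.49 ± 0.15 log2, or 11.2-fold (adjusted p = 1.88e-17), the largest change of the 35 genes in Pre_only against Control. In Pre_IL13 arrays it stood at 5.26, 5.49, 5.33 and 5.15 and in IL13 arrays at 7.88, 8.27, 7.73 and 7.69, a change of -2.58 ± 0.14. All 15 pretreated arrays lay between 4.89 and 5.59, and all 8 others between 7.69 and 9.21.

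CRYAB had levels of 9.03, 9.21 and 8.67 in Pre_only arrays, against 10.64, 10.43, 9.65 and 9.65 in Control arrays. The groups did not overlap, and CRYAB fell by 1.21 ± 0.11 (2.32-fold, adjusted p = 4.09e-10) in Pre_only against Control and by 0.92 ± 0.10 in Pre_IL13 against IL13. CRYAB stood at 9.04, 9.23, 8.60 and 8.70 in Pre_IL13 arrays and at 9.94, 10.17, 9.68 and 9.48 in IL13 arrays, again without overlap. It stood at 9.29, 9.01, 8.59 and 8.69 in Pre_Ab_IL13 arrays and at 9.32, 9.37, 8.98 and 8.85 in Pre_Ab_only arrays. Of 6 other small heat shock genes and partners, all 6 fell in both comparisons, against 12.8% and 13.8% of all genes. HSPB6, a chaperone of smooth and cardiac muscle, fell by 1.45 ± 0.14 in Pre_only against Control, HSPB2 by 0.86 ± 0.14 and HSPB3 by 0.75 ± 0.18.

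Among the regulators, SRF had levels of 9.59, 9.67 and 9.95 in Pre_only arrays, against 10.42, 10.70, 10.13 and 10.12 in Control arrays. The groups did not overlap, and Pre_only P8-B came close to the passage 8 Control arrays. SRF fell by 0.62 ± 0.15 (1.54-fold, adjusted p = 0.00172) in Pre_only against Control and by 0.75 ± 0.14 (adjusted p = 7.40e-05) in Pre_IL13 against IL13. Within passage 8 alone the change of SRF in Pre_only against Control was not called (adjusted p = 0.482). MYOCD, which encodes the SRF cofactor myocardin, had levels of 4.55, 4.64 and 4.73 in Pre_only arrays, against 4.79, 4.47, 4.89 and 4.51 in Control arrays. These lie close to background, and the change of -0.01 ± 0.17 (adjusted p = 0.972) was not called. MYOCD stood at 4.84, 4.71, 4.85 and 4.71 in Pre_IL13 arrays and at 5.52, 4.37, 5.25 and 4.67 in IL13 arrays, where the IL13 arrays spread the widest. It stood at 4.78, 4.94, 4.90 and 4.97 in Pre_Ab_IL13 arrays and at 4.78, 4.62, 4.94 and 4.79 in Pre_Ab_only arrays. The probe used for MYOCD is annotated through an expressed sequence tag.

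NOTCH3 encodes the Notch receptor of vascular smooth muscle and pericytes. Its levels were 6.05, 6.60 and 6.64 in Pre_only arrays, against 8.29, 8.47, 8.08 and 7.98 in Control arrays. All 15 pretreated arrays, from 6.05 to 6.81, were below all 8 others, from 7.80 to 8.47. NOTCH3 fell by 1.81 ± 0.14 (3.50-fold, adjusted p = 1.18e-11) in Pre_only against Control and by 1.52 ± 0.13 in Pre_IL13 against IL13. NOTCH3 stood at 6.49, 6.58, 6.38 and 6.44 in Pre_IL13 arrays and at 8.10, 8.23, 7.80 and 7.86 in IL13 arrays, again without overlap. It stood at 6.81, 6.71, 6.68 and 6.28 in Pre_Ab_IL13 arrays and at 6.60, 6.59, 6.51 and 6.21 in Pre_Ab_only arrays. Of 7 other detected Notch pathway genes, the DNA-binding partner RBPJ fell (-0.45 ± 0.14) and the ligands DLL1 (0.63 ± 0.14) and JAG1 (0.46 ± 0.12) rose in Pre_only against Control.

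IL-13 alone left most of the contractile genes uncalled. In IL13 against Control, 2 of 35 fell and 0 rose, where 1.87% of all genes were called, 0.716% lower and 1.15% higher, and the median change was -0.01. TRIM55 fell by 0.89 ± 0.13 (1.85-fold, adjusted p = 3.96e-05), with the 4 IL13 arrays below the 4 Control arrays given above. HSPB7 fell by 0.75 ± 0.14 (1.68-fold, adjusted p = 0.00193), with 1 IL13 array, P6-B at 8.27, inside the Control range. Within passage 8 alone neither was called (adjusted p = 0.0989 for TRIM55 and 0.208 for HSPB7). PPP1R14A was higher on every IL13 array than on every Control array, but its change of 0.62 ± 0.18 was not called (adjusted p = 0.0686). It passed without Pre_only P6-A (adjusted p = 0.027), Pre_IL13 P6-B (0.0427) or IL13 P8-B (0.0484), of which only the last is in the comparison. It also passed without background correction (0.57 ± 0.14, adjusted p = 0.017), with the authors' values (adjusted p = 0.0201), within passage 8 alone (0.0272), with only these groups fitted (0.0149) and with p-values adjusted over all comparisons together (0.0294).

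In pretreated cells 0 of 35 genes were called in Pre_IL13 against Pre_only (limma; 2 had an unadjusted p under 0.05), where 0.0308% of all genes were called, and the largest change was that of PPP1R14A (0.44 ± 0.19, adjusted p = 0.718). The difference between the IL-13 response with and without pretreatment was called for 1 gene, TRIM55 (1.03 ± 0.19, adjusted p = 0.00519), where 0.3% of all genes were called, 0.0462% with a higher and 0.254% with a lower response in pretreated cells. The call for TRIM55 was lost within passage 8 alone (0.54, adjusted p = 0.9998) and with experiments A and B averaged (adjusted p = 0.189). Its other detected probe, of another transcript and as dim, gave a difference of 0.58 ± 0.20 that was not called (adjusted p = 0.384), and without background correction the value was 0.30. HSPB7 gave a difference of 0.90 ± 0.21 with an adjusted p of 0.0541, and passed without any of 6 arrays (lowest adjusted p 0.0182, without Control P8-A). TRIM55 averaged 4.69 ± 0.16 in Pre_only (SD, n = 3), where it was detected on 2 of 3 arrays, and 4.88 ± 0.30 in IL13 (SD, n = 4), where it was detected on 3 of 4.

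With the antibody to IL-13Ra2, IL-13 changed 3 of the 35 genes. In Pre_Ab_IL13 against Pre_Ab_only, 2.24% of all genes were called, 1.15% higher and 1.09% lower. PPP1R14A had levels of 8.34, 8.27, 8.39 and 8.06 in Pre_Ab_IL13 arrays, against 7.54, 7.44, 7.60 and 7.34 in Pre_Ab_only arrays. The groups did not overlap, and PPP1R14A rose by 0.78 ± 0.18 (1.72-fold, adjusted p = 0.00935). It was not called within passage 6 alone (adjusted p = 0.166), with each array scaled to its median (0.0946) or with experiments A and B averaged (0.0953). SRF had levels of 10.15, 10.06, 10.28 and 9.97 in Pre_Ab_IL13 arrays, against 9.64, 9.39, 9.64 and 9.53 in Pre_Ab_only arrays, again without overlap. It rose by 0.57 ± 0.14 (1.48-fold, adjusted p = 0.0155), and the call was lost without Pre_Ab_only P6-B (adjusted p = 0.103) or Pre_Ab_IL13 P8-A (0.111). The call of SRF was also lost with each array scaled to its median (0.232) and without the passage term (0.0612). So it was with A and B averaged (0.341) and within passage 6 alone (0.0529). TRIM55 fell by 0.47 ± 0.13 (adjusted p = 0.0447), and this call was lost without any of 11 arrays, with an adjusted p of up to 0.177 (without Pre_Ab_only P8-B).

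TRIM55 was not above background on any Pre_Ab_IL13 array (4.27, 4.54, 4.42 and 4.61), against 4.67, 4.84, 4.999 and 5.23 in Pre_Ab_only arrays. By group means it was at least 1.23-fold lower, taking the lowest signal among detected probes, or its own where higher, as the limit on each Pre_Ab_IL13 array. This limit carries no error, and TRIM55 was detected on 3 of the 4 Pre_Ab_only arrays. Set against Pre_IL13 cells, which had IL-13 without the antibody, 0 of 35 genes were called in Pre_Ab_IL13 (limma; 4 had an unadjusted p under 0.05), where 0.924% of all genes were called. PPP1R14A was higher there on all 4 arrays (0.60 ± 0.18, adjusted p = 0.136), as was SRF (0.38 ± 0.14, adjusted p = 0.324). In Pre_Ab_only against Pre_only, 0 of 35 genes and 0% of all genes were called (limma; 2 of the 35 had an unadjusted p under 0.05). The comparisons of this paragraph and the last share arrays.

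**Figure D4:**
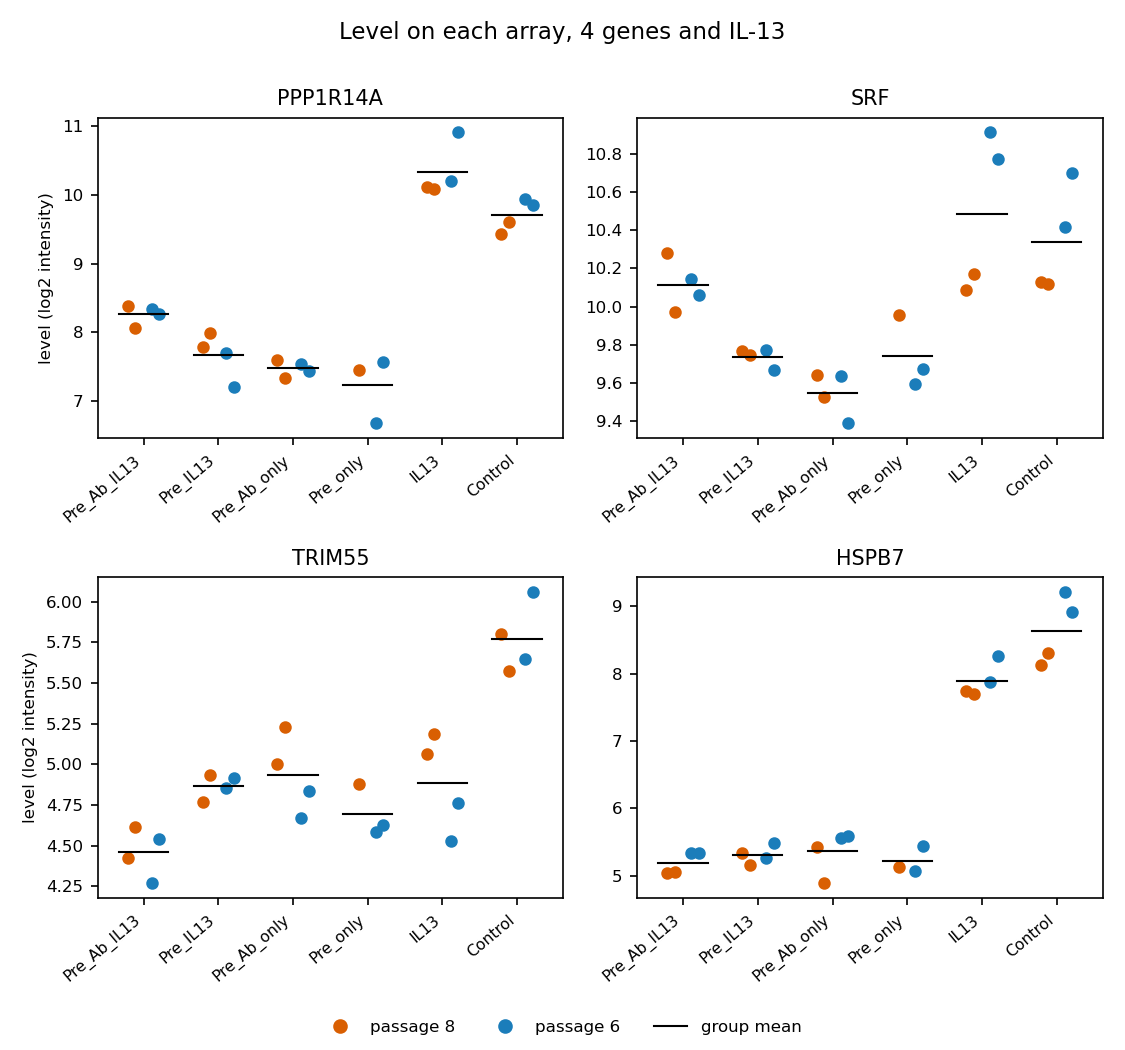
Level (log2 intensity) of PPP1R14A, SRF, TRIM55 and HSPB7 on each of the 23 arrays, by group, with passage 8 and passage 6 in different colours and the group mean as a line. PPP1R14A lies between 8.06 and 8.39 in Pre_Ab_IL13 and between 7.34 and 7.60 in Pre_Ab_only, and TRIM55 lies lowest in Pre_Ab_IL13, from 4.27 to 4.61.

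Many contractile genes also differed between passages. In passage 8 against passage 6, over all groups, 21 of 35 genes fell and 1 rose, where 29.4% of all genes were called, 12.8% lower and 16.6% higher. The median change was -0.23, and that of all genes was 0.01. Of the calls over all genes, 43.6% were lower, against 17.6% with median scaling. Under that scaling 12 contractile genes fell and 1 rose, where 4.34% of all genes fell and 20.4% rose. MYH11 fell by 1.27 ± 0.09 log2 (2.42-fold, adjusted p = 6.41e-12), MYH10 by 0.69 ± 0.13, TPM1 by 0.66 ± 0.07, CNN1 by 0.64 ± 0.10 and CRYAB by 0.54 ± 0.06. HSPB7 fell by 0.37 ± 0.08 and ACTA2 by 0.39 ± 0.06, while PPP1R14A (-0.05 ± 0.11) and SRF (-0.14 ± 0.08) were not called. PDLIM7 rose by 0.31 ± 0.07 by its brightest probe and fell by 0.22 ± 0.08 by another (adjusted p = 0.0398), so its direction was not settled. TPM2 probes were also called in opposite directions here (0.50 ± 0.08 and -0.16 ± 0.05). These differences lie between 2 beadchips as well as 2 passages. Of the fibroblast markers 5 of 11 fell and 1 rose in passage 8, and of the pericyte markers 1 of 6 fell and 1 rose, whose part in these differences was not tested.

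The change with TNF and IL-17 was called as smaller in passage 8 for 4 genes, and for MYH10 alone with median scaling. This was tested as the difference in the Pre_only effect between passages, in a model with a mean for each group in each passage (limma), where 1.44% of all genes were called, 0.693% with a higher and 0.746% with a lower change in passage 8. MYH10 changed by -0.81 in passage 8 and by -2.50 in passage 6, a difference of 1.69 ± 0.20 (adjusted p = 4.50e-06). CNN1 changed by -1.49 in passage 8 and -2.70 in passage 6 (difference 1.21 ± 0.24, adjusted p = 0.00569) and MYH11 by -1.48 in passage 8 and -2.46 in passage 6 (difference 0.99 ± 0.20, adjusted p = 0.0053). MYL9 changed by -0.57 in passage 8 and -1.57 in passage 6 (difference 1.00 ± 0.24, adjusted p = 0.0304), a call lost without Control P6-A (adjusted p = 0.152), Pre_only P6-A (0.104), Control P8-A (0.112) or Control P8-B (0.077). The other MYL9 probe, of the same transcript, gave a difference of 0.55 ± 0.24 that was not called (adjusted p = 0.445). With median scaling the adjusted p was 0.206 for CNN1, 0.288 for MYH11 and 0.41 for MYL9. For MYH10, MYH11 and CNN1 the Control arrays of passage 8 were the lower ones, while the Pre_only arrays of the passages differed less.

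Passage 8 holds 1 Pre_only array, so that side of the test rests on P8-B and on the spread of the other groups. The same difference computed from Pre_IL13 and IL13 arrays, a check chosen after seeing the data, was called for MYH10 (1.11 ± 0.18, adjusted p = 0.000564), SRF (0.75 ± 0.18, adjusted p = 0.0234) and CNN2 (0.55 ± 0.15, adjusted p = 0.0428). It was not called for MYH11 (0.55 ± 0.18, adjusted p = 0.102), CNN1 (0.25 ± 0.22, adjusted p = 0.655) or MYL9 (0.08 ± 0.22, adjusted p = 0.907).

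**Figure D5:**
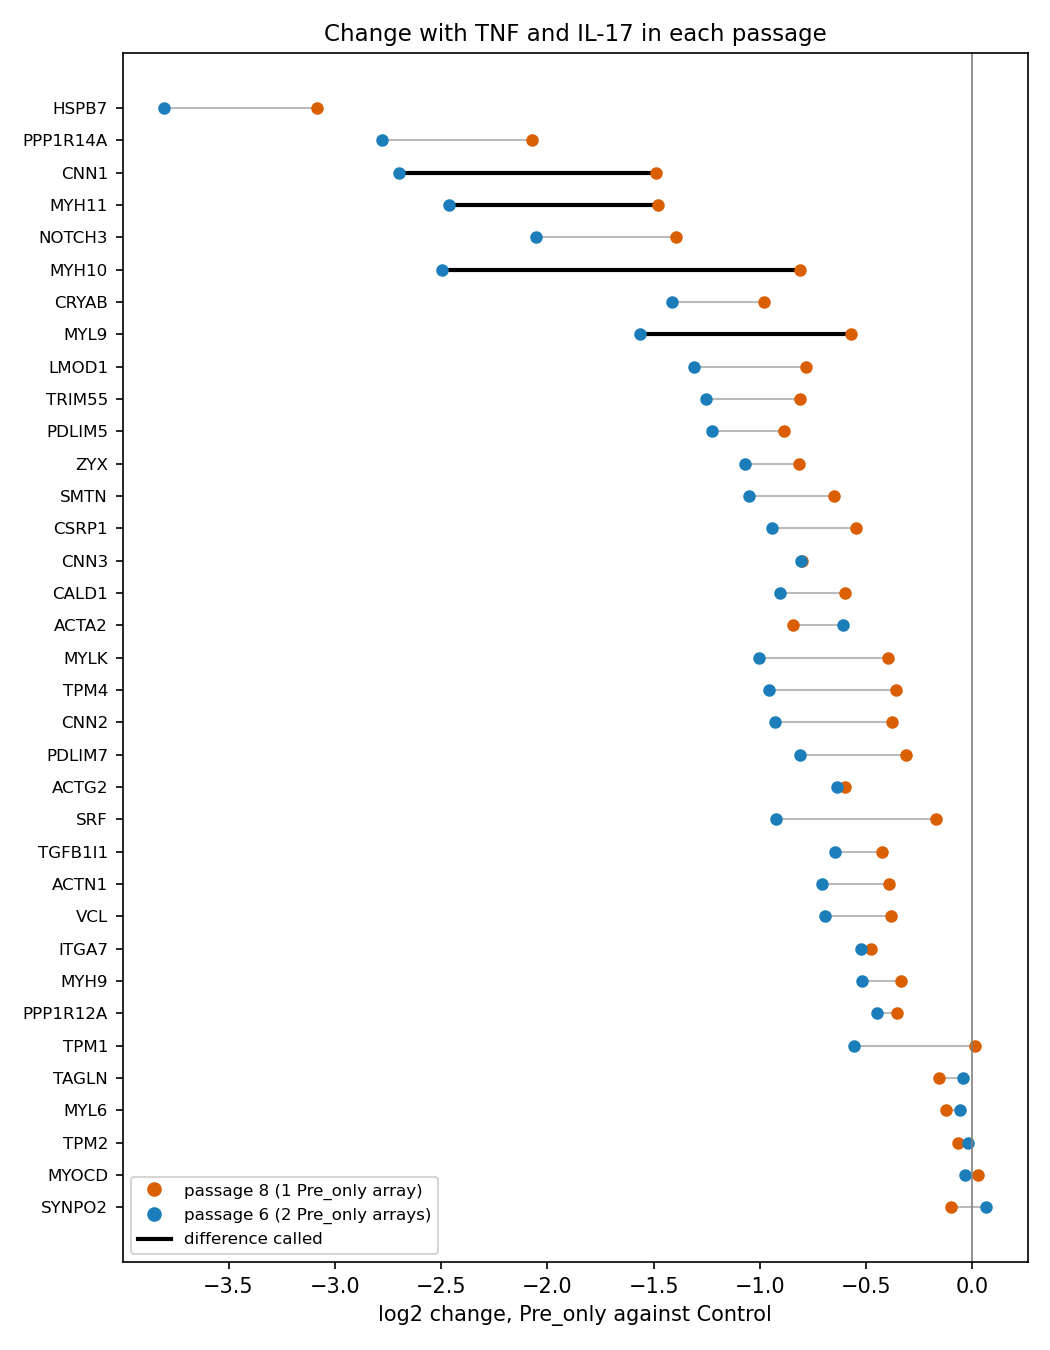
Change in level (log2 scale) of the 35 tested contractile genes in Pre_only against Control, in passage 8 (1 Pre_only array) and passage 6 (2 Pre_only arrays); dark lines join the 4 genes whose change differed between passages at an adjusted p under 0.05. MYH10 lies at -0.81 in passage 8 and at -2.50 in passage 6.

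The neighbouring pathways were followed in lists of other genes. Focal adhesion and integrin genes, which link the filaments to the matrix, were mostly lower in Pre_only against Control. There 17 of 26 fell and 2 rose, against 12.8% and 12% of all genes, with a median change of -0.46. ITGA3 (-1.72 ± 0.14), ITGA11 (a collagen receptor chain, -1.55 ± 0.16) and LIMS2 (-1.43 ± 0.15) fell, while ITGA1, another collagen receptor chain, rose by 2.09 ± 0.22 and ITGB3 by 0.55 ± 0.14. In Pre_IL13 against IL13, 13 of 26 fell and 2 rose, against 13.8% and 14% of all genes. ITGA3 changed by -1.55 ± 0.13 and ITGA1 by 1.94 ± 0.20 there.

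Of 23 other smooth muscle and thin filament genes, 10 fell and 1 rose in Pre_only against Control, against 12.8% and 12% of all genes. KCNMA1, the pore of the calcium-activated potassium channel, fell by 0.99 ± 0.13, PLN (phospholamban, an inhibitor of the calcium pump) by 0.98 ± 0.22 and ACTN4 by 0.93 ± 0.13. FBXO32, a ubiquitin ligase of muscle wasting, rose by 1.29 ± 0.25. The changes of FBXO32 and PLN differed between the passages, as listed below. In Pre_IL13 against IL13, 10 of these 23 fell and 4 rose, against 13.8% and 14% of all genes.

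The list of the SRF and myocardin-related pathway, with TGF-beta and YAP partners, was mixed. In Pre_only against Control 10 of 28 fell and 3 rose, against 12.8% and 12% of all genes. In Pre_IL13 against IL13, 6 fell and 3 rose, against 13.8% and 14% of all genes. ANKRD1 (a stretch-responsive target of YAP) fell by 1.51 ± 0.22, TEAD4 by 1.18 ± 0.15 and TGFB3 by 1.16 ± 0.32 in Pre_only against Control. The change of TGFB3 differed between the passages, as listed below. TGFB2 rose by 0.97 ± 0.16, SMAD3 by 0.52 ± 0.13 and TGFBR2, a TGF-beta receptor, by 0.37 ± 0.09. MRTFA, an SRF cofactor, fell by 0.48 ± 0.17 (adjusted p = 0.0437).

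Genes of these lists were also called in other comparisons. In passage 8 against passage 6, 12.8% of all genes fell and 16.6% rose. Of the 23 other smooth muscle genes 13 fell and 1 rose, among them CSRP2 (-1.19 ± 0.07) and PLN (-0.53 ± 0.12). Of the 26 focal adhesion genes 7 fell and 1 rose, and of the 28 genes of the SRF list 7 fell and 5 rose. In Pre_Ab_IL13 against Pre_Ab_only, FBXO32 (-0.94 ± 0.23) and TGFBR2 (-0.37 ± 0.08) fell. In IL13 against Control, HSPB3 (0.63 ± 0.16) and SYNM (0.44 ± 0.11) rose and SMAD3 (-0.50 ± 0.12) fell, and in Pre_Ab_IL13 against Pre_IL13 CSRP2 (0.49 ± 0.11) rose. The change in Pre_only against Control differed between passage 8 and passage 6 for FBXO32 (-2.03 ± 0.26), PLN (1.41 ± 0.28), TGFB3 (1.69 ± 0.24), FOSL1 (1.09 ± 0.26), ITGA11 (1.04 ± 0.27), LIMS2 (1.02 ± 0.23), TNS1 (0.97 ± 0.22) and CCN2 (0.78 ± 0.18). Passage 8 holds 1 Pre_only array, so that side of these differences rests on P8-B.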

How the data were processed

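The authors exported mean bead intensity per probe with GenomeStudio 2011.1, per the submitters' processing notes. The bead standard error, the bead number and a detection p-value stand beside each intensity, per the file headers. The authors' deposited table of normalised values, on a log2 scale, was used only as an alternative. The lowest correlation of its columns with the log2 intensity of their arrays was 0.997. RNA was labelled from 300 ng of total RNA, per the labels' protocols.

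Intensities of 47323 probes were background-corrected and quantile normalised with neqc (limma 3.58.1, R 4.3.3, offset 16), with negative controls taken from the detection p-values. A probe was kept if at least 3 arrays detected it (p under 0.05). Of 24109 such probes, 17541 had 1 symbol and a value on every array, and the brightest probe stood for its gene (12994 genes). GEO's platform annotation named the probes, and symbols were updated by gene ID through RefSeq (21309 probes found). limma fitted group means with passage as a covariate over all 23 arrays (16 residual degrees of freedom, or 11 in the model with a mean per group and passage), with a trended prior and Benjamini-Hochberg adjustment over all genes at 0.05. The method was tested on simulated data.

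The 38 genes, the marker lists and the pathway lists were chosen with earlier results of these data known. Values on every array are given, in the text or in a plot, for ACTA2, TAGLN, CNN1, MYH11, MYOCD, SRF and the 8 genes that changed most among those called in Pre_only against Control. In other comparisons each called gene is named, or, beyond 10, the 5 largest each way, and up to 3 called genes each way per pathway list. TRIM55 levels and a few further genes were added after their values were seen. The number of arrays limits the precision. Results of 1 pathway list are not reported here.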

Additional observations from a re-analysis of the deposited data

Results flagged for a closer look

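Among 175 sets of 4 arrays (35 genes in 5 groups), 7 held an array that stood apart from the other 3, and chance would give about 1 in 20. TPM4 stood at 9.48 on IL13 P6-A, with the other IL13 arrays between 8.71 and 8.79. PPP1R14A stood at 10.92 on IL13 P6-B, with the others between 10.08 and 10.20. MYLK (10.83) and TPM2 (13.60) stood apart on Pre_IL13 P6-B, from 10.43 to 10.49 and from 13.79 to 13.84. PDLIM7 stood at 9.37 on Pre_Ab_IL13 P8-A, above 9.12 to 9.13, and TGFB1I1 at 9.37 on Pre_Ab_IL13 P8-B, below 9.53 to 9.55. ITGA7 stood at 5.996 on Control P6-A, above 5.72 to 5.76.

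A difference between groups under the same contrast was called for 5 genes (limma). The response of TRIM55 to IL-13 differed by 1.03 between pretreated and other cells (adjusted p = 0.00519). The change in Pre_only against Control differed between passage 8 and passage 6 by 1.69 for MYH10, 1.21 for CNN1, 1.00 for MYL9 and 0.99 for MYH11, each less negative in passage 8, which holds 1 Pre_only array.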

How the results depend on the processing

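Of the contractile genes, 29 were called in Pre_only against Control, and the count was 23 within passage 8 alone and 27 to 32 under the other settings. In Pre_IL13 against IL13 it was 30, and 19 with median scaling. Among the contractile genes called in any comparison, PDLIM7 was the only one to change direction under the settings run: its rise in passage 8 against passage 6 became -0.029 with the mean of its probes and -0.18 with its second brightest probe, neither called. Genes of the pathway lists were not followed through the settings. For IL13 against Control, 2 genes were called (both lower). TRIM55 was the 1 left without the passage term or with experiments A and B averaged, and within passage 8 alone the 1 call was PPP1R14A, higher. PPP1R14A was also added, for 3 calls, without background correction, with the authors' values, with only those groups fitted or when adjusted together. For Pre_Ab_IL13 against Pre_Ab_only, 3 were called, and 0 with A and B averaged or within passage 6 alone. The 1 call left was TRIM55, lower, with median scaling and PPP1R14A, higher, without the passage term. For Pre_Ab_IL13 against Pre_IL13, 2 were called when only those groups were fitted or with array weights, and 1 when p-values were adjusted over all comparisons together, against 0. The difference in the IL-13 response was called for 2 genes without background correction, with the authors' values, with detection on at least 12 arrays, with the mean of a gene's probes or when adjusted together, and for 0 with A and B averaged or within passage 8 alone, against 1. With median scaling, 13 genes were called between passages, against 22, and 1 for the difference in the Pre_only effect, against 4. The second brightest probe, chosen after seeing the data, gave 32, 29 and 19 calls in Pre_only against Control, Pre_IL13 against IL13 and between passages. The cause of these shifts was not tested.

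Leaving out 1 array at a time gave 28 to 30 calls in Pre_only against Control, 28 to 30 in Pre_IL13 against IL13, 2 to 3 in IL13 against Control and 20 to 23 between passages. It gave 1 to 3 calls in Pre_Ab_IL13 against Pre_Ab_only, 1 to 2 for the difference in the IL-13 response, 3 to 5 for the difference in the Pre_only effect between passages (22 fits, since without Pre_only P8-B it cannot be estimated), and 0 in the other comparisons.

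With a replicate block of passage and experiment the counts were 29 in Pre_only against Control, 30 in Pre_IL13 against IL13, 2 in IL13 against Control, 3 in Pre_Ab_IL13 against Pre_Ab_only, 1 for the difference in the IL-13 response and 0 in the other 3 comparisons of groups, as without it. The block holds the passage, so it was not run for the passage comparisons. Deviations from the group and passage terms correlated at -0.12 to -0.05 on average between arrays of the same passage and experiment. Of 23 arrays, 2 correlated best with an array of their own passage and experiment. Such deviations balance out within a passage by construction, which pulls their correlations below 0, so these values cannot show whether arrays of an experiment were paired. The number of arrays and signal near background (MYOCD, TRIM55, SYNPO2) limit what can be seen.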
